A study of Mus musculus with 2 samples.

Results

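Neuregulins and the ErbB receptors they signal through were followed in nuclei of the injured mouse spinal cord, as 8 named genes of the 32285 in the count matrices. The genes were taken by name and not by their values: the ligands Nrg1, Nrg2, Nrg3 and Nrg4 and the receptors Egfr, Erbb2, Erbb3 and Erbb4. All 8 were present in both matrices. Both libraries came from male mice of the transgenic line iNeuroD1GFP (NeuroD1 is a proneural transcription factor), the injury core giving 1 library of nuclei and a region outside it the other. That other region is called distal in the titles and peri-injury in the extraction protocol. The cord was injured at P60 (the labels give an age of 8 weeks), the mice received TAM on days 5 to 8 after the injury (100 mg/kg/day), and the cords of 3 mice were taken on day 10. Injury, TAM and genotype were thus shared by the 2 groups, and no animal without NeuroD1 or without injury enters the comparisons. The labels say neither whether the 3 mice were pooled nor which promoter or cell type drives the transgene. The study asks about the conversion of glia into neurons by NeuroD1, and the ligands and receptors are described here by cell class and region.

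Neuregulins are EGF-family growth factors, mostly made as membrane precursors and released by shedding proteases. They bind ErbB3 and ErbB4, while ErbB2 binds no ligand and serves as the partner kinase, and EGFR answers to EGF, TGF-alpha and related ligands. In the nervous system axonal NRG1 acts on Schwann cells, at the neuromuscular junction and on cells of the oligodendrocyte lineage, and in the forebrain ErbB4 is best known from inhibitory interneurons.

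In the distal library the genes differed by class. Among the named classes, the abundant ligands Nrg1, Nrg2 and Nrg3 were highest in neurons. Barcodes described below as background-like held similar levels of these ligands. Erbb3 was highest in oligodendrocytes and their progenitors, and Egfr was concentrated in astrocytes and fibroblasts. Erbb4 UMIs were found in every class, and also in the barcodes described below as background-like. Erbb4 was highest in oligodendrocyte progenitors (OPCs) and committed oligodendrocyte precursors. In the distal library it was lower in inhibitory-marker than in excitatory-marker neurons. Levels are CPM, the gene's share of all unique molecular identifiers (UMIs) summed over the nuclei of a class in a library and scaled to the usual base of CPM, with exact Poisson 95% intervals in brackets. A ratio was called higher or lower when it reached 1.5-fold with an exact interval that excluded 1 and the gene had at least 10 CPM on either side. With 1 library per region there is no replicate and no p-value, and all intervals and limits cover counting error only.

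Upstream sequence is shown for the receptor gene that differed most between classes, Egfr, for the one found in every class, Erbb4, and for Erbb2, because it alone among the members with a sequence held an E-box, the motif that NeuroD1 and related factors bind. RefSeq promoter sequence (GRCm38.p6) was matched for 5 of the 8 members, namely Egfr, Erbb2, Erbb4, Nrg3 and Nrg4. Capitals mark matches on either strand to the E-box CANNTG or to the SOX-type motif ACAANG, and each sequence is the 250 bases before the start site, 5′ to 3′ in the direction of the gene.
Egfr, chr11:16751953-16752202, plus strand: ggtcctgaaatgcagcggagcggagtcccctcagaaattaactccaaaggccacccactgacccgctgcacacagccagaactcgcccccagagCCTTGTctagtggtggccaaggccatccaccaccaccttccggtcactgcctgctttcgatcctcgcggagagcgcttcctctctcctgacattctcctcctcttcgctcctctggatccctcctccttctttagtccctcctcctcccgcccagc
Erbb4, chr1:69108060-69108309, minus strand: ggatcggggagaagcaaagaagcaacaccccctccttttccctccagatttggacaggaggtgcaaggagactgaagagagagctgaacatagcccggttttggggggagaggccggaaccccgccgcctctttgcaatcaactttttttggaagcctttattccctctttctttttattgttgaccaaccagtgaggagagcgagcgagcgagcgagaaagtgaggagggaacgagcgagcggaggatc
Erbb2, chr11:98412234-98412483, plus strand: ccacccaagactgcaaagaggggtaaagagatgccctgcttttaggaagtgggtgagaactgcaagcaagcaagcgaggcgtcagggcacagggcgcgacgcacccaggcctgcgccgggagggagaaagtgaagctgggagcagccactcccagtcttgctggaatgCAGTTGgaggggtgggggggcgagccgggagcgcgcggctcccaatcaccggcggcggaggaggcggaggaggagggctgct
Egfr held 1 match to ACAANG, at -156 and read on the reverse strand, and Erbb2 held 1 match to CANNTG, at -82. Erbb4, Nrg3 and Nrg4 held 0 matches to either motif in this window. CANNTG occurred in 66.2% and ACAANG in 36.3% of all 32851 RefSeq promoters of the same length, so these matches describe letters and say nothing about binding.

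The core library held 16362 barcodes and 30469264 UMIs at a median of 1303 UMIs per barcode, and the distal library held 7452 barcodes and 19049572 UMIs at a median of 1743. Classes were built from clusters by marker genes, so each name below stands for a marker-defined, neuron-like or astrocyte-like class. Neuron markers were found throughout both libraries, and more so in the core, and their source outside neurons was not tested. Core neurons had 22868 CPM of the 8 neuron markers, but the other core nuclei had 21826 CPM, and 6205 core barcodes formed a background-like cluster whose profile varied little beyond random sampling. In the distal library neurons had 15884 CPM of these markers, against 8132 CPM in the other nuclei. The 49 distal background-like barcodes had 2377 CPM of Nrg1 (1980 to 2831), 358.5 CPM of Nrg2 (215.8 to 559.8) and 4698 CPM of Nrg3 (4133 to 5319). The distal neuron levels given below lay within these intervals. Core background-like barcodes had 2748, 309.0 and 5628 CPM of these ligands, and core neurons 2683, 427.8 and 5309 CPM. Core glia were scarce (14 oligodendrocytes, 19 OPCs and 76 astrocytes), so most values by glial class come from the distal library, with 1813 oligodendrocytes, 80 committed precursors, 372 OPCs, 489 astrocytes, 340 myeloid nuclei, 440 fibroblasts, 89 endothelial nuclei and 1507 neurons. The libraries shared 38 barcodes. Each neuronal ligand is therefore set beside the neuron markers, whose level relative to distal neurons was 0.220 in distal oligodendrocytes, 0.318 in OPCs, 0.427 in astrocytes, 0.564 in myeloid nuclei and 0.422 in fibroblasts.

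**Figure D1:**
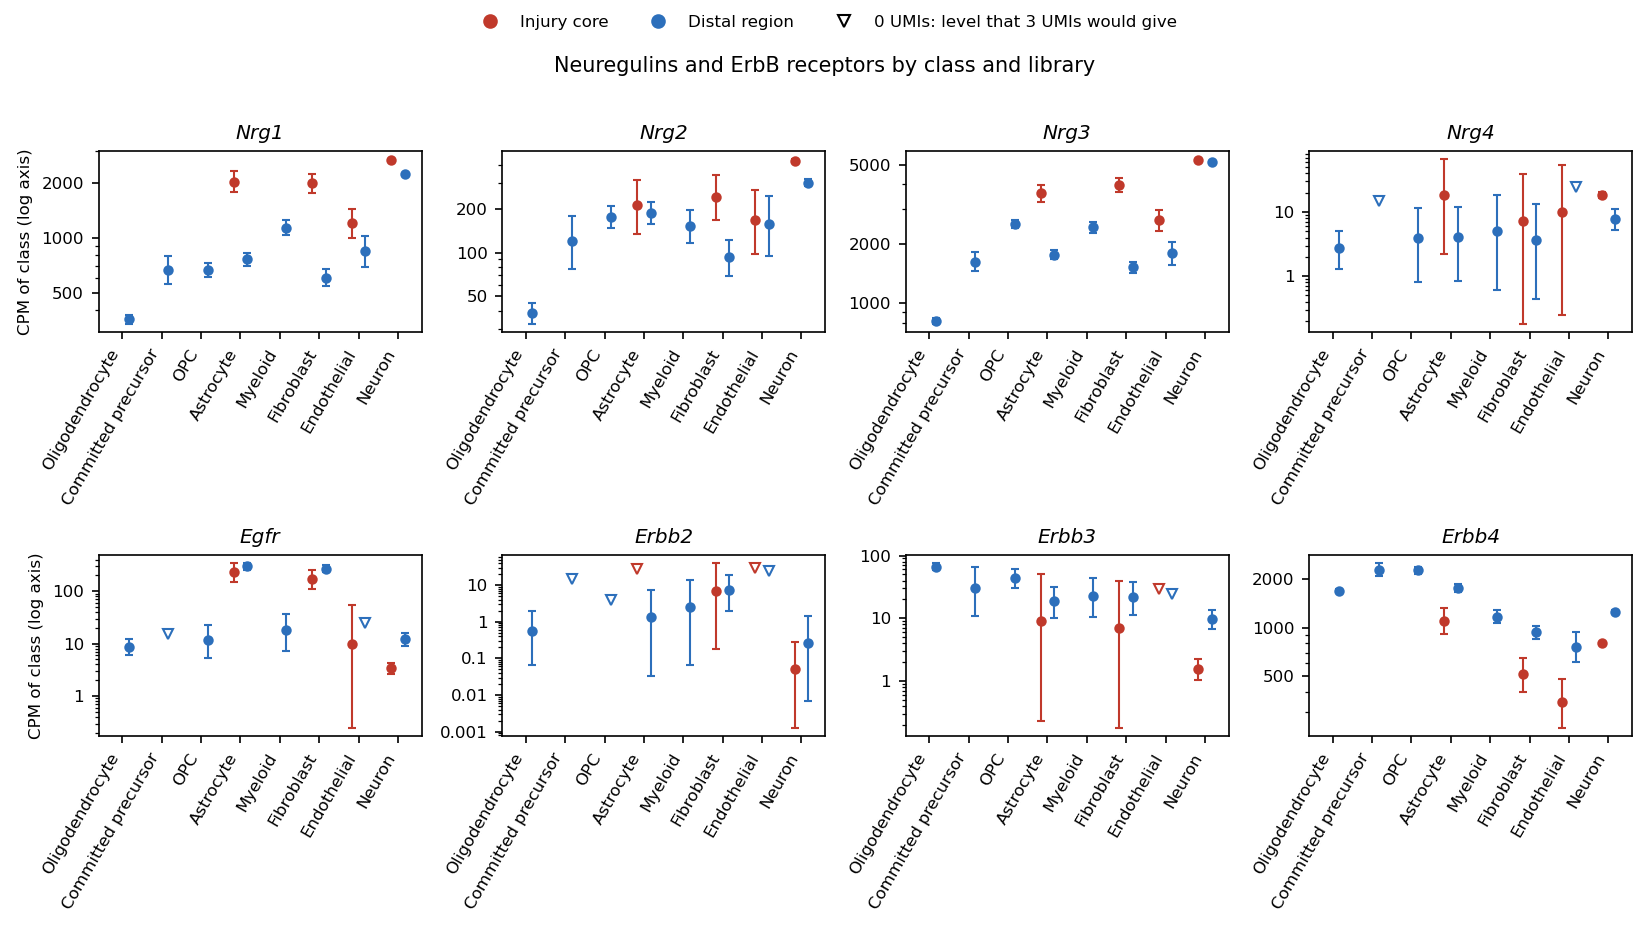
Level of each of the 8 genes (CPM, log axis) by marker-defined class in the injury core (red) and distal (blue) libraries, with exact Poisson 95% intervals, for classes of at least 50 nuclei in that library; open triangles stand for 0 UMIs and mark the level that 3 UMIs would give. Among the classes shown, Nrg1, Nrg2 and Nrg3 are highest in neurons. Egfr stands out in astrocytes and fibroblasts, and Erbb4 is high in distal OPCs and committed precursors. Background-like barcodes are not shown.

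Nrg1 (ENSMUSG00000062991, GRCm38 chromosome 8, 31814551 to 32884029, minus strand) encodes the founding neuregulin. In oligodendrocytes of the distal library it stood at 355 CPM (336 to 375), in OPCs at 666 CPM (609 to 727), in astrocytes at 764 CPM (703 to 830), in fibroblasts at 604 CPM (541 to 673), and in neurons at 2237 CPM (2190 to 2285). The ratio to neurons was 0.159 in oligodendrocytes (0.150 to 0.168), 0.298 in OPCs, 0.342 in astrocytes, 0.270 in fibroblasts and 0.508 in myeloid nuclei. Each of these 5 ratios lay below that of the summed neuron markers in the same class, and within the span of the single markers, which in oligodendrocytes ran from 0.0804 to 0.330. Thinned to 1000 UMIs, Nrg1 was detected in 32.4% of distal oligodendrocytes and 67.0% of distal neurons, and unthinned in 48.6% and 79.0%, at median depths of 1742 and 2121 UMIs.

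Nrg3 (ENSMUSG00000041014, GRCm38 chromosome 14, 38368952 to 39473088, minus strand), a neural neuregulin that binds ErbB4, was the member with the most UMIs, at 818 CPM in distal oligodendrocytes, 1766 CPM in astrocytes, 2514 CPM (2402 to 2629) in OPCs and 5167 CPM (5095 to 5240) in neurons. OPCs stood at 0.487 of the neuron level (0.464 to 0.510), above the summed neuron markers at 0.318 but within the span of the single markers, 0.127 to 0.654. Against oligodendrocytes, OPCs had 3.07 times as much Nrg3 (2.90 to 3.26).

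Nrg2 (ENSMUSG00000060275, GRCm38 chromosome 18, 36017652 to 36197380, minus strand), a ligand of ErbB3 and ErbB4, stood at 188 CPM (158 to 222) in distal astrocytes, 177 CPM (148 to 209) in OPCs, 38.5 CPM (32.5 to 45.4) in oligodendrocytes and 302 CPM (284 to 320) in neurons. The astrocyte ratio to neurons, 0.623 (0.519 to 0.744), lay above the highest single neuron marker in astrocytes, which was 0.487. Nrg2 in core astrocytes, from 23 UMIs, stood at 0.494 of core neurons (0.313 to 0.742). That value lay below the lowest single marker there, 0.605. Its interval held that marker, the summed core markers at 0.718 and the distal ratio. Oligodendrocytes, at 0.128 of the neuron level, had less than astrocytes by the largest factor of the 3 abundant ligands: the astrocyte level was 4.88 times theirs (3.83 to 6.21) for Nrg2, against 2.15 times for Nrg1 and 2.16 times for Nrg3. OPCs had 4.59 times the oligodendrocyte level of Nrg2 (3.59 to 5.85). After thinning, 19.9% of astrocytes and 17.2% of OPCs held Nrg2, against 3.68% of oligodendrocytes and 24.9% of neurons.

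**Figure D2:**
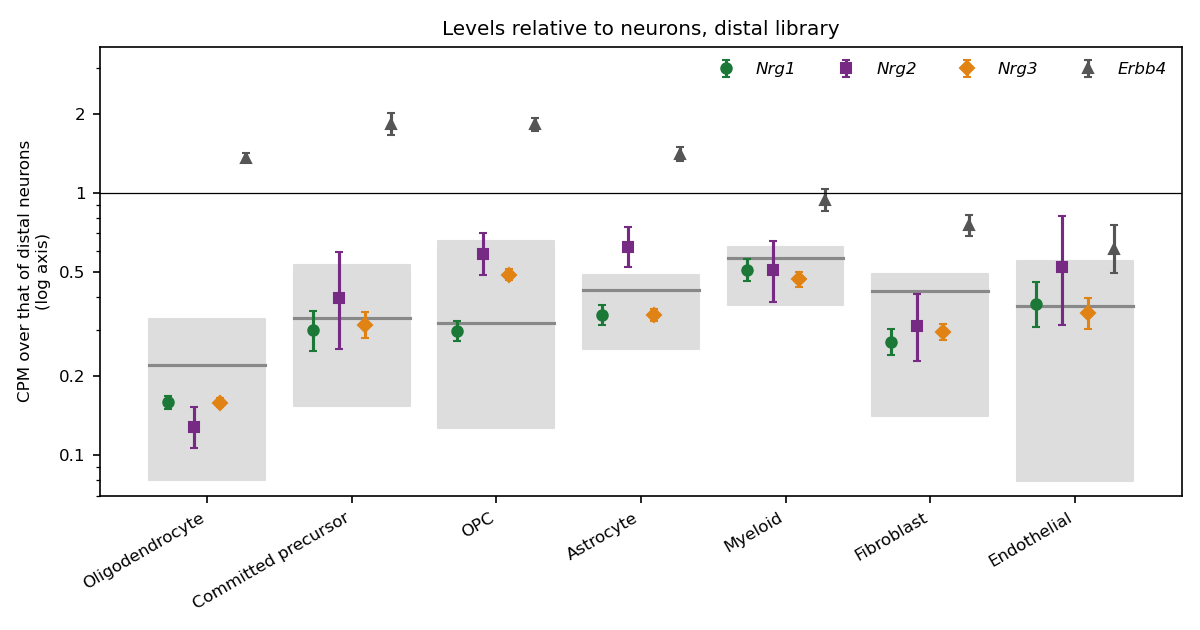
CPM of Nrg1, Nrg2, Nrg3 and Erbb4 in each distal class over that of distal neurons (log axis) with exact 95% intervals; grey boxes span the 8 single neuron markers and the grey line is their summed level. Nrg1 and Nrg3 fall inside the boxes in every class shown, Nrg2 lies above the box in astrocytes at 0.623, and Erbb4 lies above the box in every class shown. The boxes hold neuron markers only, and distal background-like barcodes, not shown, had 1038 CPM of Erbb4 beside 1242 CPM in distal neurons.

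Nrg4 (ENSMUSG00000032311, GRCm38 chromosome 9, 55220222 to 55326844, minus strand), a short ligand of ErbB4 known from fat and gut, was sparse. In the distal library it gave 10 UMIs in oligodendrocytes, or 2.71 CPM (1.30 to 4.99), 0 to 3 UMIs in each other named glial or vascular class, and 30 UMIs in neurons, or 7.87 CPM (5.31 to 11.2). Core neurons had 366 UMIs, or 18.4 CPM (16.5 to 20.4), and core background-like barcodes 14.2 CPM (11.4 to 17.5).

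Egfr (ENSMUSG00000020122, GRCm38 chromosome 11, 16752203 to 16918158, plus strand) encodes the EGF receptor, and among members of at least 10 CPM its level differed most between classes. Core astrocytes had 230 CPM (149 to 339) and core neurons 3.36 CPM (2.60 to 4.27), a ratio of 68.3 (41.4 to 110). Distal astrocytes had 295 CPM (258 to 337) and distal neurons 12.1 CPM (8.83 to 16.1), a ratio of 24.5 (17.8 to 34.4). Fibroblasts were almost as high, at 171 CPM (110 to 255) in the core, 50.9 times core neurons (30.5 to 82.2), and at 269 CPM (228 to 317) in the distal library, 22.3 times distal neurons (15.9 to 31.8). Oligodendrocytes, at 8.68 CPM, and OPCs, at 11.9 CPM, did not part from neurons, with ratios of 0.720 (0.444 to 1.16) and 0.984 (0.423 to 2.04). Endothelial nuclei of the distal library held 0 Egfr UMIs, which allows up to 24.8 CPM, whereas 24 mural nuclei held 8 UMIs, or 287 CPM (124 to 565).

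Detection of Egfr followed the levels. After thinning, 17.6% of 51 core astrocytes and 24.0% of 317 distal astrocytes held at least 1 Egfr UMI, as did 14.3% of 49 core fibroblasts and 24.4% of 225 distal fibroblasts. The shares were 0.859% in distal oligodendrocytes, 0.358% in core neurons and 1.08% in distal neurons. Unthinned, 23.7% of core astrocytes (median depth 1199 UMIs) and 26.6% of distal astrocytes (1210 UMIs) held Egfr, against 0.717% of core neurons (1883 UMIs) and 2.26% of distal neurons (2121 UMIs), so the shallower class had the larger share. Within the astrocyte class of the distal library, the cluster led by Slc7a10, Trp63 and Fgfr3 had 511 CPM of Egfr and the cluster led by A2m, Gfap and Myoc had 164 CPM, a ratio of 3.12 (2.34 to 4.17). In the core the same clusters had 245 and 184 CPM, from 20 and 5 UMIs, a ratio of 1.33 (0.483 to 4.53) whose interval holds both 1 and the distal ratio. The 2 distal fibroblast clusters differed likewise, at 618 CPM in the cluster led by Slc47a1 and Tspan11 and 216 CPM in the cluster led by Ranbp3l and Slc7a11, a ratio of 2.86 (1.97 to 4.11), with a core ratio of 2.07 (0.841 to 5.02).

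Erbb3 (ENSMUSG00000018166, GRCm38 chromosome 10, 128567523 to 128589652, minus strand), a neuregulin receptor with little kinase activity of its own, was highest in the oligodendrocyte lineage. It stood at 66.5 CPM (58.4 to 75.4) in distal oligodendrocytes, 43.5 CPM in OPCs, 29.9 CPM in committed precursors, 22.9 CPM in myeloid nuclei, 22.0 CPM (11.4 to 38.4) in fibroblasts, 18.8 CPM (10.3 to 31.5) in astrocytes and 9.70 CPM (6.83 to 13.4) in neurons. The ratio to neurons was 6.85 in oligodendrocytes (4.84 to 9.96), 4.49 in OPCs (2.72 to 7.37), 3.09 in committed precursors (1.06 to 7.37), 2.36 in myeloid nuclei (1.003 to 4.99) and 2.27 in fibroblasts (1.07 to 4.44). The 8 oligodendrocyte markers were also above the neuron level of 2044 CPM in these classes, but in another order. They stood at 10598 CPM in committed precursors, 5967 CPM in OPCs, 4253 CPM in myeloid nuclei and 5360 CPM in fibroblasts. Distal endothelial nuclei, without an Erbb3 UMI, had 4847 CPM of these markers. The part of the markers in the result was not tested. OPCs had 0.655 times the oligodendrocyte level (0.441 to 0.944), so the mature cells carried more, while neighbours in the order from OPCs down to astrocytes overlapped in their intervals. Thinned detection was 7.18% in oligodendrocytes, 3.25% in OPCs and 0.937% in neurons, and unthinned it was 12.1%, 8.33% and 2.39% at median depths of 1742, 1567.50 and 2121 UMIs. Endothelial nuclei held 0 Erbb3 UMIs in both libraries, which allows up to 29.5 CPM in the core and 24.8 CPM in the distal library.

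Erbb2 (ENSMUSG00000062312, GRCm38 chromosome 11, 98412470 to 98437716, plus strand), the ligandless partner receptor, gave 6 UMIs in 16360 core nuclei and 16 UMIs in 7443 distal nuclei. Its highest class level was 7.33 CPM in distal fibroblasts, from 4 UMIs, and it gave 2 UMIs in distal oligodendrocytes and 0 in OPCs, which allows up to 3.96 CPM there. The ratio of fibroblasts to neurons was 142 in the core (1.81 to 11156), from 1 UMI in each class, and 27.9 in the distal library (2.77 to 1376), from 4 UMIs in fibroblasts and 1 in neurons. Fibroblasts over oligodendrocytes stood at 13.5 (1.94 to 149) in the distal library. These ratios rest on 1 to 4 UMIs, and none was counted, since no class reached 10 CPM.

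Erbb4 (ENSMUSG00000062209, GRCm38 chromosome 1, 68032186 to 69108059, minus strand), the receptor that binds all 4 neuregulins, was abundant throughout the distal library. It stood at 2280 CPM (2076 to 2499) in committed precursors, 2266 CPM (2160 to 2376) in OPCs, 1751 CPM (1658 to 1849) in astrocytes, 1692 CPM (1650 to 1735) in oligodendrocytes, 1167 CPM in myeloid nuclei, 934 CPM in fibroblasts, 761 CPM in endothelial nuclei and 1242 CPM (1207 to 1278) in neurons. The intervals overlapped for committed precursors and OPCs, for astrocytes and oligodendrocytes, and for myeloid nuclei and neurons. The 49 background-like barcodes of the distal library had 1038 CPM (782 to 1351). The levels of neurons, myeloid nuclei and fibroblasts lay within that interval, and the endothelial level lay below it. The ratio to neurons was 1.84 in committed precursors (1.66 to 2.02), 1.82 in OPCs (1.72 to 1.93), 1.41 in astrocytes and 1.36 in oligodendrocytes (1.31 to 1.42), so only the first 2 passed 1.5-fold. The astrocyte ratio passed it under 3 alternatives, at 1.501 with finer clusters, 1.53 after thinning and 1.70 with nuclei classed one by one, and the oligodendrocyte ratio under the last, at 1.70. The summed neuron markers in these 4 classes stood at only 0.220 to 0.427 of the neuron level.

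After thinning, Erbb4 had a UMI in 89.9% of OPCs, 88.2% of committed precursors, 79.8% of astrocytes, 71.8% of oligodendrocytes and 51.4% of neurons in the distal library, against 92.5%, 96.3%, 80.8%, 82.7% and 70.9% before thinning. Neurons had the lowest share of these 5 classes either way, while OPCs and committed precursors, and astrocytes and oligodendrocytes, changed places. In the core, astrocytes had 1103 CPM (914 to 1318), fibroblasts 514 CPM (402 to 647), endothelial nuclei 344 CPM (240 to 479) and neurons 804 CPM (792 to 817), and background-like barcodes 886 CPM (863 to 910). Core astrocytes were therefore 1.37 times core neurons (1.14 to 1.64), close to the distal ratio.

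The calls over all members were as follows. In the distal library oligodendrocytes against neurons had 1 member higher (Erbb3) and 3 lower (Nrg1, Nrg2 and Nrg3), where 27.5% of all genes tested were higher and 27.3% lower. OPCs had 2 higher (Erbb3 and Erbb4) and the same 3 lower, beside 18.6% and 15.8% of all genes. Astrocytes had 1 higher (Egfr) and these 3 lower, beside 25.9% and 13.2%. Fibroblasts had 2 higher (Egfr and Erbb3) and these 3 lower, beside 30.7% and 13.5%. Committed precursors also had 2 higher (Erbb3 and Erbb4) and 3 lower, beside 13.9% and 12.5%. Myeloid nuclei had 1 higher (Erbb3) and 3 lower, beside 24.4% and 11.1%. Endothelial nuclei of the distal library had 4 lower, the receptor gene Erbb4 (0.613, 0.493 to 0.753) among them with Nrg1, Nrg2 and Nrg3, beside 8.30%. Core astrocytes had 1 higher (Egfr) and 1 lower (Nrg2), beside 11.7% and 3.86% of all genes, core fibroblasts 1 higher (Egfr) and 2 lower (Nrg2 and Erbb4), beside 13.0% and 3.94%, and core endothelial nuclei 0 higher and 4 lower (Nrg1, Nrg2, Nrg3 and Erbb4), beside 17.7% and 8.46%. Among glia, OPCs against oligodendrocytes had 3 higher (Nrg1, Nrg2 and Nrg3) and 1 lower (Erbb3), beside 18.4% and 13.8%, and astrocytes against oligodendrocytes had 4 higher (these ligands and Egfr) and 1 lower (Erbb3), beside 27.9% and 13.6%.

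Levels were also divided by the length of the gene, introns included. Whether UMIs of these 3′ libraries follow gene length was not tested, so the order of members on this scale is descriptive only. In distal oligodendrocytes Erbb3 had 300 CPM per 100 kb, against 157 for Erbb4, 74.1 for Nrg3, 33.2 for Nrg1, 21.4 for Nrg2, 5.23 for Egfr, 2.54 for Nrg4 and 2.15 for Erbb2. In distal astrocytes Egfr had 178 CPM per 100 kb, Erbb4 163, Nrg3 160.0, Nrg2 105, Erbb3 85.0 and Nrg1 71.4. In distal neurons Nrg3 led at 468 CPM per 100 kb, before Nrg1 at 209, Nrg2 at 168, Erbb4 at 115 and Erbb3 at 43.9. On this scale Erbb3, a short gene with few UMIs, exceeded Erbb4 in oligodendrocytes, whereas in CPM Erbb4 was far above it.

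Among neurons, the receptor and the ligands were spread unevenly over the 13 neuron clusters, which were formed without the 8 members. They were grouped by transmitter markers, with both libraries pooled. In 4 inhibitory clusters the inhibitory markers (Gad1, Gad2, Slc32a1 and Slc6a5) exceeded the excitatory ones (Slc17a6, Slc17a7 and Slc17a8) by 8.18 to 16.7 times. In 6 excitatory clusters the excitatory markers were higher, by any factor. The inhibitory markers there stood at 0.275 (cluster 18) to 0.799 (cluster 4) times the excitatory ones, so a smaller excess sufficed for this group. In the core alone, 2 of these had slightly more inhibitory markers: cluster 4 (69.6 against 66.3 CPM) and cluster 8 (75.1 against 72.6 CPM). There was 1 cholinergic-like cluster. The other 2 were placed in neither group, although inhibitory markers were the higher: cluster 1, with 4499 nuclei, at 3.11 times, and cluster 7 at 1.14 times. Erbb4 ran from 384 to 521 CPM in the inhibitory clusters and from 432 to 5193 CPM in the excitatory ones, with both libraries pooled. Outside these groups, cluster 1 had 785.5 CPM and cluster 7 had 1190 CPM. In the core the inhibitory clusters (366 to 464 CPM) lay below the background-like barcodes at 886 CPM. This was not particular to them: excitatory cluster 8 (457 CPM), cluster 1 (782 CPM), the cholinergic-like cluster (303 CPM) and all core neurons (804 CPM) did too. In the distal library the inhibitory clusters lay at 478 to 726 CPM, and background-like barcodes at 1038 CPM (782 to 1351). Thus 3 of the 6 excitatory clusters exceeded 2000 CPM, and none of the 4 inhibitory ones did.

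The cluster with the most Erbb4, numbered 21 and led by Cpne4, had 4652 CPM (4341 to 4979) in 105 core nuclei and 5674 CPM (5350 to 6013) in 77 distal nuclei. Pooled, it had 6.46 times the Erbb4 of the other neurons (6.16 to 6.77), and 96.7% of its nuclei held a UMI. Cluster 11, led by Dpp10 and Maf, had 2037 CPM in the core and 2319 CPM in the distal library, and cluster 18, led by Fer1l6 and Nmur2 and almost only distal with 276 of its 280 nuclei, had 2079 CPM there. The lowest level, 246 CPM (185 to 320), was that of the cholinergic-like cluster 29.

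Nrg1 showed another order. The cholinergic-like cluster had Chat and Prph among its leading genes. All 3 cholinergic markers were detected with the libraries pooled, but Slc18a3 gave 0 UMIs in the core and 2 in the distal library. The cluster held 5932 CPM of Nrg1 (5524 to 6362) in 30 core nuclei and 10639 CPM (9980 to 11330) in 9 distal nuclei. Pooled over 39 nuclei this was 7854 CPM, 3.07 times the other neurons (2.92 to 3.22), and its Nrg2, at 850 CPM, was 2.11 times theirs (1.82 to 2.43), while its Nrg3, at 3486 CPM, was 0.657 times theirs (0.612 to 0.705). With the libraries pooled, cluster 18 had the least Nrg1, at 601 CPM (579 CPM in its 276 distal nuclei), and the least Nrg3, at 2945 CPM, and was among the 3 highest for Erbb4. In the distal library alone cluster 13, led by Gucy2d and with Nos1 among its leading genes, was lower, at 525 CPM, and it had 1402 CPM in the core. Inhibitory and excitatory clusters overlapped for Nrg1, which ran from 1184 to 3484 CPM in the 4 inhibitory clusters and from 601 to 3448 CPM in the 6 excitatory ones.

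**Figure D3:**
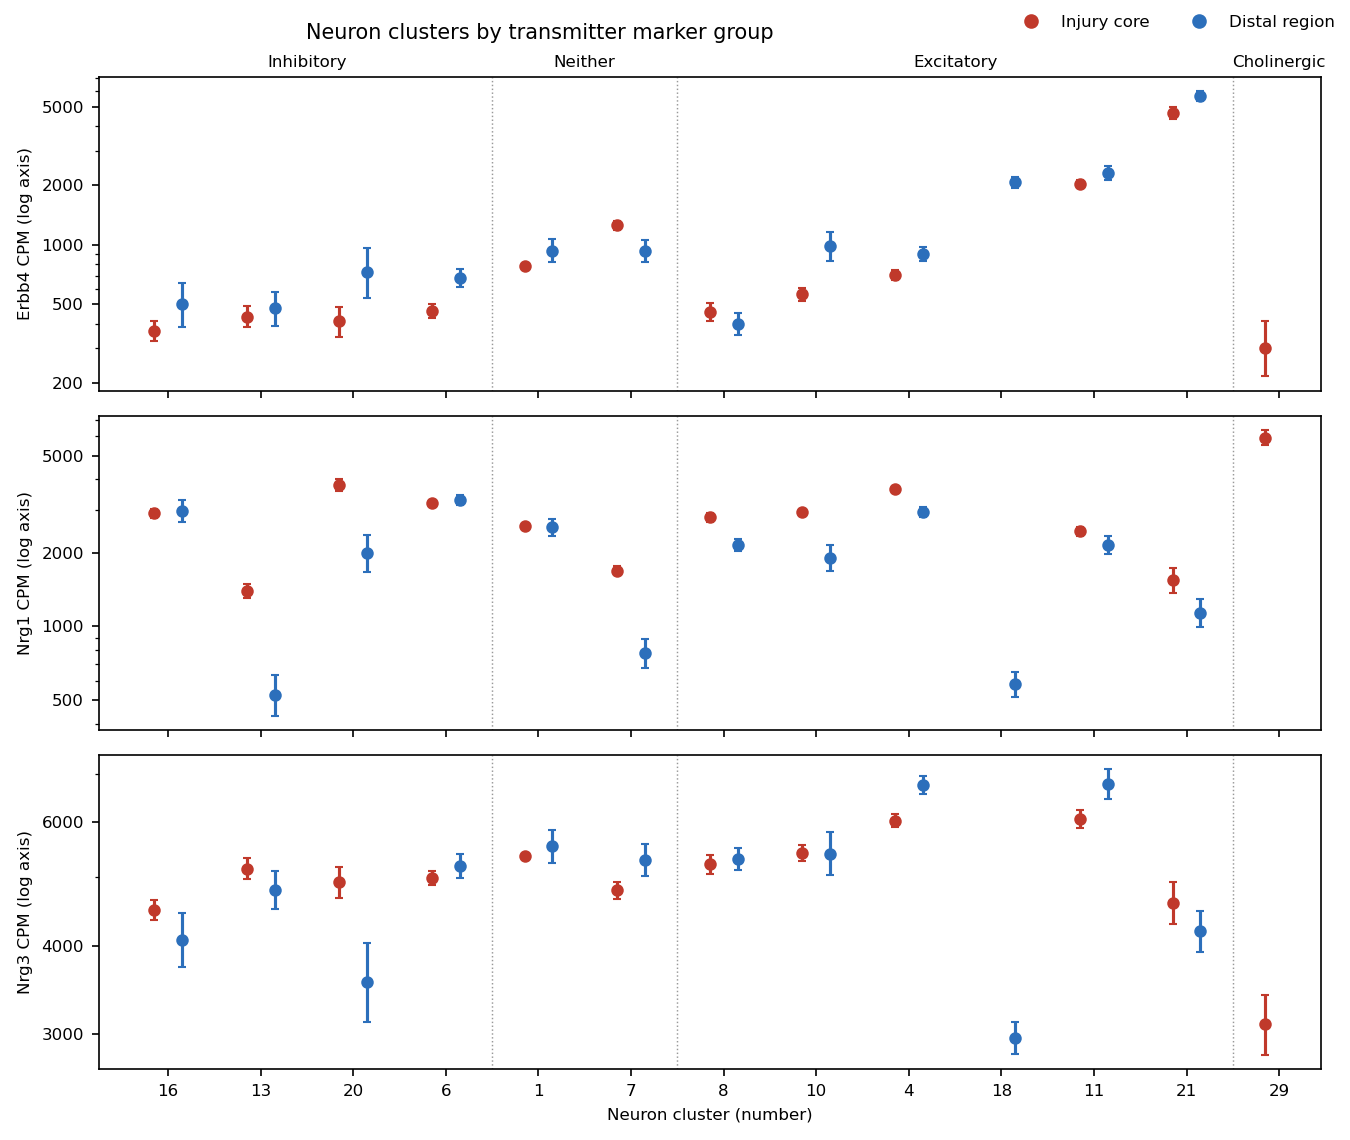
Erbb4, Nrg1 and Nrg3 (CPM, log axes) in each of the 13 neuron clusters in the injury core (red) and distal (blue) libraries, for clusters of at least 20 nuclei in the library, with exact Poisson 95% intervals; dotted lines part the transmitter marker groups. Erbb4 reaches 4652 and 5674 CPM in cluster 21 and stays at or below 726 CPM in the 4 inhibitory clusters, and Nrg1 is highest in cluster 29.

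The order of clusters was alike in the libraries. Over the 11 clusters with at least 20 nuclei in both, Pearson's r of log2(CPM + 5) between core and distal was 0.944 for Erbb4, 0.871 for Nrg1, 0.843 for Nrg3 and 0.782 for Nrg2. This is a description of 11 points whose nuclei were clustered together and come from the same libraries. Egfr, sparse in neurons, was highest in cluster 8, led by Nmu and Gna14, at 11.3 CPM in the core (9 UMIs in 8 nuclei) and 39.2 CPM in the distal library (23 UMIs in 12 nuclei), 6.38 times the other neurons when pooled (4.10 to 9.71).

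Inhibitory and excitatory neurons were also compared by single nuclei, as neurons with at least 1 inhibitory and 0 excitatory marker UMIs against the opposite. In the core, 2076 inhibitory nuclei had 760 CPM of Erbb4 and 774 excitatory nuclei had 821 CPM, a ratio of 0.926 (0.875 to 0.980) that was not called. In the distal library 207 inhibitory nuclei had 662 CPM (604 to 723) and 203 excitatory nuclei had 1628 CPM (1527 to 1733), a ratio of 0.406 (0.364 to 0.454). Erbb4 was the only member called in the distal library, where 9.18% of all genes were called, and 0 members were called in the core, where 4.08% were. Thinned to 1000 UMIs, 46.8% of distal inhibitory nuclei and 65.0% of distal excitatory nuclei held Erbb4, and 41.4% and 46.2% of the core nuclei. Unthinned, the distal shares were 70.0% and 80.3% at median depths of 2922 and 2545 UMIs.

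The distal ratio depended on how neurons were chosen, at 0.714 with coarser clusters, 0.714 with finer clusters and 0.763 with nuclei classed one by one, each lower but under 1.5-fold. The core ratio was 0.581 (0.532 to 0.634) without the neuron cluster that held 50.5% of core neurons, an alternative chosen after the data had been seen. Within the 8 single clusters compared, the pooled ratio ran from 0.465 (0.347 to 0.635) in cluster 6 to 1.17 (1.08 to 1.26) in cluster 1. The value in cluster 6 rests on 17 excitatory nuclei with 51 Erbb4 UMIs. Between these extremes it was 0.547 in cluster 10, 0.736 in cluster 18 and 0.774 in cluster 11. It lay above 1, with intervals that held 1, in cluster 8 (1.042), cluster 4 (1.067) and cluster 7 (1.135). Nrg1 stood at 2623 CPM in inhibitory and 2896 CPM in excitatory nuclei of the core, a ratio of 0.906 (0.879 to 0.934), and at 2440 and 2196 CPM in the distal library, a ratio of 1.11 (1.034 to 1.194). Nrg2 ratios were 1.07 in the core and 1.11 in the distal library, and Nrg3 ratios 0.935 and 0.845, all under 1.5-fold.

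The injury core was compared with the distal region in the 2 classes with at least 100 nuclei in both libraries, neurons and fibroblasts. In neurons 1 member was called higher (Nrg4) and 2 lower (Egfr and Erbb4), where 10.2% of all genes were higher and 13.5% lower. The neuron class was made of different clusters in the libraries. Cluster 1 held 4441 of 8790 core neurons but 58 of 1507 distal neurons, and cluster 18 held 4 and 276. Erbb4 had 804 CPM in core neurons and 1242 CPM in distal neurons, a ratio of 0.647 (0.627 to 0.669), and was lower in the core in 9 of the 11 clusters with at least 20 nuclei in both. Nrg4 was at 18.4 CPM in core and 7.87 CPM in distal neurons, a ratio of 2.33 (1.61 to 3.51), and Egfr at 3.36 and 12.1 CPM, a ratio of 0.279 (0.189 to 0.415). Within clusters, core and distal Nrg4 stood at 22.4 and 21.1 CPM in cluster 1 and at 18.6 and 18.5 CPM in cluster 7. It stood at 11.21 and 11.25 CPM in the inhibitory clusters summed, and at 13.0 and 3.44 CPM in the excitatory ones. The part of the cluster mix in the neuron ratios was not tested. Nrg1 (ratio 1.20), Nrg2 (1.42) and Nrg3 (1.027) were not called. Erbb3, at 1.56 CPM in core and 9.70 CPM in distal neurons, had too low a level to be counted.

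Oligodendrocyte markers in the neuron class moved with these receptor differences, at 270 CPM in core neurons and 2044 CPM in distal neurons, and their part in the result was not tested. The calls also rested on the choice of neurons and on scaling. With finer clusters Nrg4 was at 1.42 and Erbb4 at 0.6999, neither called, and with nuclei classed one by one 0 members were called in either direction. Scaling by the trimmed mean of M-values (TMM), with a log2 shift of -0.12 taken from each core-over-distal ratio, left Nrg2 called higher at 1.54 and Erbb4 not called at 0.703.

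In fibroblasts the 3 abundant ligands were called higher in the core and 2 receptors lower, where 6.88% of all genes were higher and 6.06% lower. Nrg1 had 2004 CPM in 112 core fibroblasts and 604 CPM in 440 distal fibroblasts, a ratio of 3.32 (2.82 to 3.90), and the ratios were 2.60 (1.63 to 4.08) for Nrg2 and 2.60 (2.33 to 2.90) for Nrg3. The neuron markers moved the same way, at 15846 CPM in core fibroblasts and 6706 CPM in distal fibroblasts. Relative to the neurons of the same library these were levels of 0.693 and 0.422. The part of the neuron markers in the ligand ratios was not tested. Erbb4 had 514 CPM in core and 934 CPM in distal fibroblasts, a ratio of 0.550 (0.423 to 0.705), and Egfr had 171 and 269 CPM, a ratio of 0.636 (0.395 to 0.983) that was not called with at least 500 genes per nucleus. The oligodendrocyte markers were also lower in the core, at 699 CPM in core fibroblasts and 5360 CPM in distal fibroblasts, and their part in the receptor ratios was not tested.

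**Figure D4:**
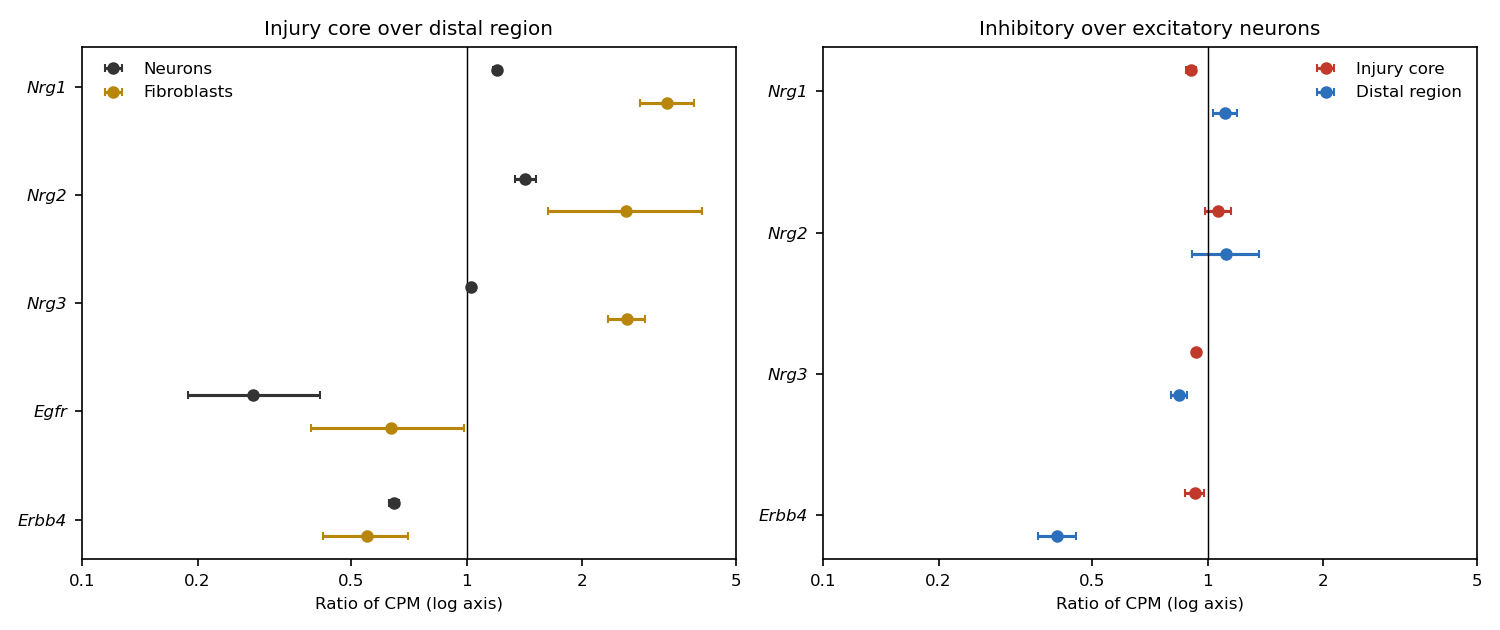
Left, ratio of CPM in the injury core over the distal region in neurons (black) and fibroblasts (gold); right, ratio in inhibitory-marker over excitatory-marker neurons of the core (red) and distal (blue) libraries; log axes, exact 95% intervals. Erbb4 lies below 1 in all 4 comparisons, at 0.647, 0.550, 0.926 and 0.406, and the 3 ligands lie between 2.60 and 3.32 in fibroblasts.

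A list of 29 other pathway genes gives the surroundings of the members. Among neurons 22 of the 29 reached 10 CPM, and 0 were higher and 6 lower in the core, with a median log2 ratio of -0.16 beside 0.00 for all genes tested, of which 10.2% were higher and 13.5% lower. The 6 were Gab1, an adaptor of receptor kinases, at 34.3 CPM in core and 106 CPM in distal neurons (ratio 0.323), Lrig3 (0.334), Erbin, a scaffold that binds ErbB2 (0.502), the shedding protease gene Adam19 (0.548), the ligand gene Tgfa (0.629) and the PI3-kinase subunit gene Pik3r1 (0.642). The oligodendrocyte markers, at 270 CPM in core neurons and 2044 CPM in distal neurons, moved the same way, and their part was not tested. Among fibroblasts 25 of the 29 counted, with 1 higher (Lrig2, 1.90) and 4 lower: Errfi1, an inhibitor of EGFR, at 35.7 CPM in the core and 214 CPM in the distal library (ratio 0.166), Pik3r1 (0.413), Pik3ca (0.419) and Gab1 (0.451). The median there was -0.36, beside -0.06 for all genes, of which 6.88% were higher and 6.06% lower.

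Pathway genes also had class patterns in the distal library. Gab1 was highest in oligodendrocytes, at 954 CPM against 106 CPM in neurons, and Erbin likewise, at 562 CPM against 170 CPM. Lrig1, a membrane brake on ErbB receptors, was at 193 CPM in astrocytes against 11.01 CPM in neurons, and Errfi1 at 214 CPM in fibroblasts against 14.95 CPM in neurons. Of the ligands of EGFR, Tgfa was at 132 CPM in endothelial nuclei, 116 CPM in OPCs, 82.5 CPM in oligodendrocytes, 16.1 CPM in astrocytes and 14.7 CPM in neurons, and Areg, Ereg and Epgn had 0 UMIs in the 7 classes examined. Lrig1, Areg, Ereg and Epgn were named after their values had been seen.

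Genes with the most similar profile were ranked over 12 units, each a class in a library with at least 50 nuclei, by Pearson's r of log2(CPM + 5) among 14060 genes. Nearest to Nrg1 were Cntnap2 (0.983), Agbl4 and Rasgrf1, to Nrg2 Rimbp2 (0.968), Fam155a and Reep1, to Nrg3 Rbfox1 (0.990), Myt1l and Unc80, and to Nrg4 Gm26633 (0.962), Sgsm3 and Tesc. Nearest to Egfr were Ikbke, Cdc42bpg (0.946) and Ppp1r3c, to Erbb3 Cep57l1 (0.937), Hipk2 and Depdc1b, and to Erbb4 Cdh10 (0.941), Cdh20 and Kctd4. Erbb2 reached 10 CPM in no unit and was not ranked. The units share libraries, so these values describe likeness only.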

How the data were processed

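Single-nucleus libraries were made with 10x Genomics 3′ chemistry, per the labels' protocols. The authors deposited 1 matrix a library of whole-number UMI counts without normalisation, written by Cell Ranger 7.1.0 per the file headers. Seurat and Cell Ranger, and the builds mm10 and GRCh38, are named with no role in the submitters' processing notes, and no annotation is named there. Every feature has a mouse identifier, and positions come from GENCODE M21 (GRCm38), which holds 32158 of 32285. The lowest barcode total was 500 UMIs in both libraries.

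A filter of 300 genes or more and a mitochondrial share of 5% or less removed 2 core and 9 distal barcodes. Scrublet called 0 doublets at thresholds above the highest scores and was treated as not having worked, so doublets were left in. Counts were scaled to 10000 and log-transformed, and 2000 variable genes chosen without the 8 members gave 40 principal components, 15 neighbours and 31 Leiden clusters at resolution 1.0 (Python 3.11.15, numpy 2.4.6, scipy 1.17.1, scanpy 1.11.5, scikit-learn 1.9.0, leidenalg 0.10.2). Clusters took the class with the highest marker fold. Kept out were 1 background-like cluster, 1 with haemoglobin or mitochondrial genes leading, 5 mixed clusters with a second class's markers, and 1 hepatocyte-like cluster. The mixed clusters held 910 core and 1236 distal barcodes, and the haemoglobin or mitochondrial cluster 93 and 915. Mixed cluster 26, of 105 barcodes led by Pkd1l2, had 233.5 CPM of inhibitory and 11.82 CPM of excitatory markers. It is therefore absent from the comparisons of inhibitory neurons. The members and gene lists were chosen with earlier results of these data known, and the rules that make classes, the grouping of neuron clusters and the figures were set after seeing the data.

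Summed counts were turned into CPM with exact Poisson intervals, shares carry Clopper-Pearson intervals, and ratios carry exact conditional intervals, all at 95%. Where no UMI was found, 3 counts set the upper limit. Thinning to 1000 UMIs left out 5181 core and 1507 distal nuclei. The 8 members were always named, as were pathway genes called in a compared class and the 3 genes most like each member.  Alternatives were a minimum of 500 genes, removal of the highest 5% of doublet scores, resolutions 0.5 and 2.0, nuclei classed one by one, thinning, TMM scaling, no CPM minimum, at least 2 transmitter marker UMIs, the mean of per-nucleus CPM and, added after seeing the data, leaving out the largest core neuron cluster. The nuclei of a library are not replicates, and differences between animals or dissections were not measured.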

Additional observations from a re-analysis of the deposited data

Results flagged for a closer look

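A hepatocyte-like cluster of 89 distal barcodes, led by Apoa2 and Alb and absent from the core, was outside every comparison and held members above the neuron level. There Egfr stood at 219 CPM (219.1), from 27 UMIs, 18.2 times distal neurons (10.9 to 29.8). Erbb3 stood at 64.9 CPM (64.91), from 8 UMIs, 6.69 times neurons (2.69 to 14.6), and Nrg4 at 32.5 CPM (32.46), from 4 UMIs, 4.12 times neurons (1.06 to 11.7). The neuron markers were at 0.552 of the neuron level in these barcodes, and the oligodendrocyte markers at 6354 CPM, against 2044 CPM in distal neurons. Their part in these levels was not tested.

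The ratio of Nrg1 in inhibitory over excitatory neurons lay on opposite sides of 1 in the libraries, at 0.906 (0.9059) in the core and 1.11 (1.111) in the distal region. Both intervals excluded 1, neither ratio reached 1.5-fold, and the difference between the libraries was not tested.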

How the results depend on the processing

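Of 140 repeats of the results that answer a comparison, 123 stayed on their side of the threshold or, for counts of members, within 1.5 times. No called ratio changed direction in any repeat. In 11 repeats a ratio that was not called crossed 1, among them the core inhibitory-over-excitatory ratio of Erbb4, at 1.034 with at least 2 marker UMIs. The ranges of the stable ratios were 0.144 to 0.217 for Nrg1 and 6.24 to 8.68 for Erbb3 in distal oligodendrocytes over neurons, 24.2 to 44.7 for Egfr in distal astrocytes over neurons, 1.78 to 1.99 for Erbb4 in OPCs over neurons, and 6.05 to 6.58 for Erbb4 in cluster 21 over other neurons. The distal inhibitory-over-excitatory ratio of Erbb4 was weaker at resolution 0.5 (0.7139), at resolution 2.0 (0.7145) and with nuclei classed one by one (0.7628). The core ratio was stronger, at 0.5807, without the neuron cluster that held most core neurons, which was chosen after seeing the data. Erbb4 in astrocytes over neurons passed 1.5-fold at resolution 2.0 (1.501), thinned (1.533) and one by one (1.701), and in oligodendrocytes over neurons one by one (1.697). Members called higher in core neurons numbered 0 at resolutions 0.5 and 2.0 and one by one, and 2 with TMM scaling. Members called lower there numbered 1 at both resolutions and with TMM, and 0 one by one. Members called lower in core fibroblasts numbered 1 with at least 500 genes. The cause was not tested. Resolution 0.5 gave no separate astrocyte, fibroblast, myeloid or committed precursor class, and those values could not be had. Depth limits Erbb2, Nrg4 and all core glia. No paired analysis was possible because each region has 1 library, with no replicate numbers.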
